A study of Homo sapiens with 2 samples.

Results

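Respiratory complexes II to V of the mitochondrion were examined through 46 listed nuclear genes, which encode subunits of the 4 complexes, the carrier cytochrome c and a set of assembly factors. Members were taken by gene symbol, updated through the Entrez identifier, from probe sets that the platform annotation gives to exactly 1 gene. Of the 46 genes, 43 had such a probe set and 41 were detected, among 13150 detected genes of 19775 on the arrays. The brightest probe set stood for its gene, and detection required a mean level over both arrays above 0.92, which is where the middle probe set of the array lies.

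The study asked which mRNAs are recovered with Ago2, the Argonaute protein that carries microRNAs, when miR-941 is added in excess. Both samples came from 293T cells, a human embryonic kidney line transformed with the SV40 large T antigen, and there was 1 U133 Plus oligonucleotide array per sample. The miR-941 array held RNA precipitated with an Ago2 antibody from cells given 30 nmol/l of synthetic miR-941. The control array held precipitated RNA from cells given a scrambled oligonucleotide at the same 30 nmol/l. The title of the control sample names an Ago2 precipitate and its antibody entries name nonimmune IgG beads, and if those entries hold, effects of oligonucleotide and antibody cannot be told apart. With 1 array per group there is no replicate check, no test and no p-value, and every value below describes these 2 arrays. Input RNA was not analysed here, so more mRNA in the cells and more of it in the precipitate cannot be told apart, nor can more cells with an mRNA and more of it per cell.

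The respiratory chain passes electrons from nutrients to oxygen across the inner mitochondrial membrane. Complex II oxidises succinate, complex III hands the electrons to cytochrome c, complex IV reduces oxygen, and complex V, the ATP synthase, uses the resulting proton gradient to make ATP. Complex II is built wholly from nuclear genes, while complexes III, IV and V also hold subunits made inside the mitochondrion from its own genome. Assembly factors insert heme, copper and iron-sulfur groups and are not part of the finished enzymes.

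The added microRNA is shown with its seed, bases 2 to 8 from the 5′ end, in capitals, since the seed is the stretch by which a microRNA finds its target mRNAs. RefSeq (GRCh38.p14) lists the same 23 bases at 5 loci on the plus strand of chromosome 20, the first at chr20:63919495-63919517. The mRNA sequences of the members were not used here, so members were not sorted by seed match.
hsa-miR-941: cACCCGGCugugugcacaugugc

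Most genes of complexes II to V had a small positive difference, computed as the miR-941 value minus the control value and so positive when miR-941 reads higher. Of the 41 detected members, 36 were higher on the miR-941 array, 4 were lower and 1 was equal, a share of 87.8% higher. Among all 13150 detected genes 46.3% were higher, 42.4% lower and 11.3% equal. The median difference of the members was 0.11 on the log2 scale, which corresponds to 1.08-fold, against a median of 0.00 over all detected genes. The quartiles of the members ran from 0.05 to 0.22, where those of all detected genes ran from -0.19 to 0.21. Above that upper quartile of all genes lay 15 of the 41 members (36.6%, against 25% of all genes), and below the lower quartile lay 1 (2.44%, against 25%). The differences were thus small and mostly on 1 side of 0 on the deposited scale. That side depended on where 0 lies. The 9 probe sets of bacterial control RNAs (BioB, BioC, BioDn and CreX), which read added RNA and not that of the cells, were higher on the miR-941 array in 8 cases and lower in 1, from -0.05 to 0.17, with a median of 0.09. Of the 41 members 21 lay within that range, 17 above it (29.4% of all detected genes did) and 3 below it (39.1% of all detected genes). With every difference taken relative to the median of these controls, an alternative chosen after seeing the data, 24 members were higher and 17 lower (58.5% higher, against 38.1% of all detected genes), and the median of the members was 0.02, against -0.09 for all detected genes. Directions given from here on are on the deposited scale, and the part of the controls' difference in that of the members was not tested. At 1.5-fold or more, 1 member was higher, against 2.94% of all detected genes, and none was lower, against 2.87%. The same member, UQCC2, was the only one 2-fold or more higher, against 0.228% of all genes, and none was 2-fold or more lower, against 0.289%.

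**Figure D1:**
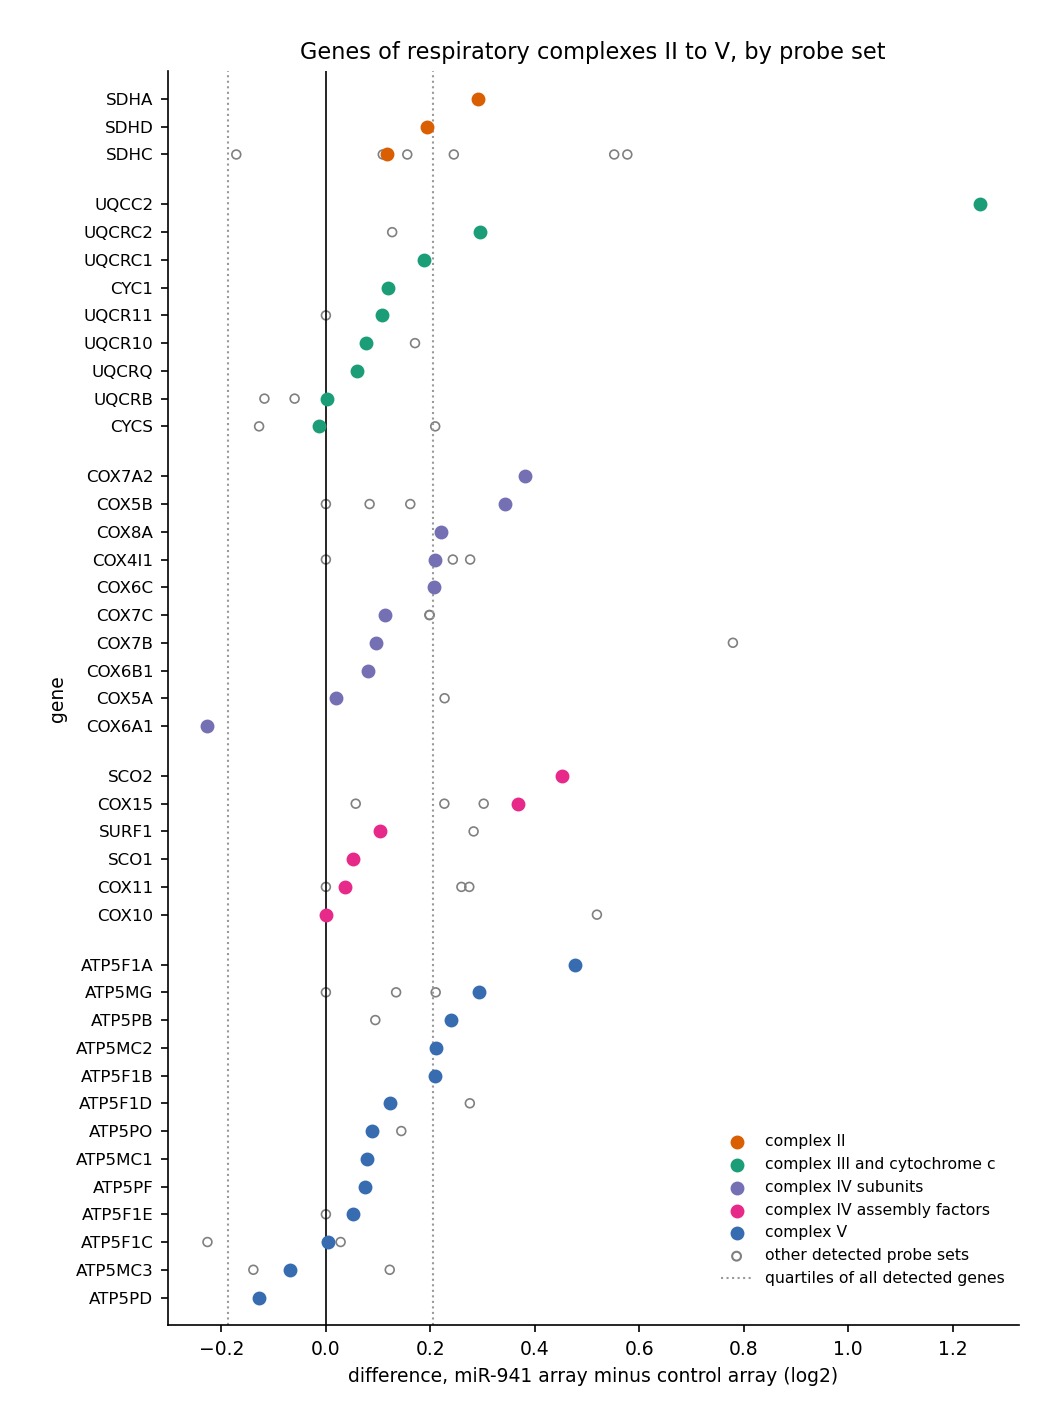
Difference between the miR-941 array and the control array (log2, horizontal axis) for each of the 41 detected genes of complexes II to V. Filled points are the brightest probe set of a gene, coloured by complex, open points are its other detected probe sets, and dotted lines are the quartiles of all detected genes (-0.19 and 0.21). Most filled points lie between 0 and 0.4, COX6A1 is the lowest at -0.23 and UQCC2 the highest at 1.25.

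Complex II was higher in each of its 3 detected subunits, with a median of 0.19. SDHA, the flavoprotein that oxidises succinate, read 6.999 on the miR-941 array and 6.71 on the control array, a difference of 0.29. Its single probe set has the suffix _x_at, which the manufacturer gives to probes that can match other transcripts. SDHC, a membrane anchor of the complex, read 7.34 on the miR-941 array and 7.22 on the control array, a difference of 0.12. Of its 7 detected probe sets 6 were higher and 1 lower, between -0.17 and 0.58, with a median of 0.16. SDHD, the other membrane anchor, read 7.42 on the miR-941 array and 7.23 on the control array, a difference of 0.19. SDHB, the iron-sulfur subunit, had no probe set given to it alone and was not analysed here.

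Complex III and cytochrome c were higher for 8 of 9 detected genes, with a median of 0.11. UQCRC2, a core protein of complex III, read 8.26 on the miR-941 array and 7.96 on the control array (difference 0.29), and its second probe set was also higher, at 0.13. UQCRC1, the other core protein, read 7.81 on the miR-941 array and 7.62 on the control array (0.19). CYC1, the heme-bearing cytochrome c1 that reduces cytochrome c, read 7.98 on the miR-941 array and 7.86 on the control array (0.12). The accessory subunits lay closer to 0: UQCR11 differed by 0.11, UQCR10 by 0.08 and UQCRQ by 0.06. UQCRB, another accessory subunit, read 9.48 on both arrays (0.00), and its 2 further detected probe sets were lower, at -0.06 and -0.12. CYCS, the mobile carrier cytochrome c itself, read 9.48 on the miR-941 array and 9.495 on the control array (-0.01). The 3 probe sets of CYCS ran from -0.13 to 0.21. Both ends of that range were dim probe sets (mean levels 1.51 and 1.39), and the electron carrier had no clear side. UQCRH and UQCRFS1, the hinge and the Rieske iron-sulfur subunits, had no probe set given to them alone.

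UQCC2, a factor for the assembly of cytochrome b into complex III, stood far from the other members and rested on 1 dim probe set. It read 2.25 on the miR-941 array and 1.00 on the control array, a difference of 1.25, and the control value lies close to the detection level of 0.92. UQCC2 was the only detected member with a mean level under the 75th percentile of all probe sets, 3.37. A brighter probe set that the annotation gives to UQCC2 together with the microRNA gene MIR3934, and which the selection therefore leaves out, read 6.22 on the miR-941 array and 6.32 on the control array, a difference of -0.09. The 2 probe sets thus disagreed in direction. Without UQCC2 the median of the 40 other detected members was 0.11 and their SD across genes was 0.15, against 0.23 with it.

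Complex IV, cytochrome c oxidase, was higher for 9 of its 10 listed nuclear subunits, with a median of 0.16. Of these 10 subunits, 5 lay above the upper quartile of all detected genes (50%, against 25% of all genes). The same count was 1 of 3 for complex II and 2 of 9 for complex III and cytochrome c. It was 2 of 6 for complex IV assembly factors and 5 of 13 for complex V. COX7A2, a small subunit of the membrane part, read 9.66 on the miR-941 array and 9.28 on the control array, a difference of 0.38. COX5B, a subunit on the matrix side, read 8.98 on the miR-941 array and 8.64 on the control array (0.34). Its 3 other detected probe sets had smaller differences of 0.16, 0.08 and 0.00. COX8A differed by 0.22, and COX6C and COX4I1, the nuclear subunit that binds ATP as a regulator, by 0.21 each. COX4I1 had 3 of 4 detected probe sets higher and 1 equal. COX7C differed by 0.11 with all 3 probe sets higher (up to 0.20), COX6B1 by 0.08 and COX5A by 0.02 with both probe sets higher. COX7B differed by 0.10 on its brightest probe set and by 0.78 on the other, which read 4.18 on the miR-941 array and 3.40 on the control array. COX6A1, the ubiquitous isoform of subunit 6A, was the exception. It read 10.9 on the miR-941 array and 11.2 on the control array, a difference of -0.23 on 1 detected probe set, and was the lowest of all members.

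Factors that build complex IV were higher for 5 of 6 detected genes and equal for 1, with a median of 0.08. That median was 0.22 with the mean over the detected probe sets of a gene, 0.31 without _x_at and _s_at probe sets, and -0.01 relative to the bacterial controls. SCO2, a copper chaperone for the subunit that receives electrons from cytochrome c, read 7.27 on the miR-941 array and 6.82 on the control array, a difference of 0.45. Its paralogue SCO1 read 5.90 on the miR-941 array and 5.85 on the control array (0.05). The paralogues thus had different sizes of difference, each on 1 probe set and so with no internal check. COX15, which makes heme A, read 5.46 on the miR-941 array and 5.09 on the control array (0.37), and all 4 of its probe sets were higher, from 0.06 to 0.37. COX10, which acts one step before COX15 in heme A synthesis, read 6.34 on both arrays, and its dimmer probe set differed by 0.52, reading 1.39 on the miR-941 array and 0.87 on the control array. SURF1, whose loss is known to cause Leigh syndrome, differed by 0.10 with both probe sets higher. COX11, a copper factor, differed by 0.04 with 3 of 4 probe sets higher and 1 equal. COX17, the copper donor of SCO1 and SCO2, was below the detection level on its only probe set given to 1 gene, at 0.0037 on the miR-941 array and 0.18 on the control array, while one that the annotation also gives to POPDC2 read 7.37 on the miR-941 array and 7.27 on the control array.

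Complex V, the ATP synthase, was higher for 11 of its 13 detected subunits, with a median of 0.09, which was -0.0029 relative to the bacterial controls. In the catalytic F1 head, all 5 subunits were higher, with a median of 0.12. ATP5F1A, the alpha subunit, read 11.0 on the miR-941 array and 10.5 on the control array, a difference of 0.48 that was the largest among the members after UQCC2. ATP5F1B, the beta subunit that holds the catalytic sites, read 9.99 on the miR-941 array and 9.78 on the control array (0.21). ATP5F1D, the delta subunit, differed by 0.12 with both probe sets higher, and ATP5F1E, the epsilon subunit, by 0.05. ATP5F1C, the gamma subunit that turns within the head, read 9.21 on both arrays, a difference of 0.0049. Its 3 bright probe sets lay between 0.00 and 0.03, and the dim one was at -0.23.

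In the membrane part and the stalks of the ATP synthase, 6 of 8 detected subunits were higher and 2 lower, with a median of 0.08. ATP5MG, subunit g of the membrane part, read 10.1 on the miR-941 array and 9.80 on the control array (0.29), with 3 of 4 probe sets higher and 1 equal. ATP5PB, the b subunit of the peripheral stalk, read 11.3 on the miR-941 array and 11.1 on the control array (0.24). Of the other stalk subunits, ATP5PO differed by 0.09 and ATP5PF by 0.07. ATP5PD, subunit d of the same stalk, read 8.75 on the miR-941 array and 8.88 on the control array (-0.13) on 1 detected probe set. ATP5MF, subunit f, was below the detection level on its probe set given to it alone, at 0.86 on the miR-941 array and 0.72 on the control array, while a bright one that the annotation also gives to ARMC2-AS1 read 9.03 on the miR-941 array and 8.65 on the control array.

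The 3 genes of subunit c, which encode the same mature ring protein behind different import sequences, did not share a direction. ATP5MC2 read 9.06 on the miR-941 array and 8.85 on the control array (0.21). ATP5MC1 read 6.22 on the miR-941 array and 6.14 on the control array (0.08). ATP5MC3 read 10.4 on both arrays, a difference of -0.07, and of its 3 detected probe sets 2 were lower and 1 was higher, from -0.14 to 0.12. ATP5MC1 and ATP5MC2 rest on 1 detected probe set each. All 3 differences were smaller than the spread between probe sets of a gene over all detected genes (0.29), given next. That of ATP5MC2 was larger than the same spread among the members (0.16).

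Beside the bacterial controls, a measure of spread is given by probe sets of the same gene, which are not replicates and can read different transcript forms. For the 22 members with 2 or more detected probe sets, the differences of the 2 brightest had a pooled within-gene SD of 0.16. Over 6106 genes of all detected levels, many of them dimmer than the members, it was 0.29. The difference of 23 of the 41 members was smaller in size than the first of these values. The share of all detected genes under that value was not counted. The quartiles of all detected genes, -0.19 and 0.21, lie only a little outside it. Whether a count such as the 23 is particular to the members was not tested. Of the 22 members 10 had every detected probe set higher (45.5%), against 16.5% of the 6106 genes, and none had every probe set lower, against 17.1%. Of all 84 detected probe sets of the members 67 were higher and 10 lower (79.8% and 11.9%), where the shares over 23317 detected probe sets given to 1 gene were 44.2% and 43.4%. The brightest probe set had a suffix _x_at or _s_at for 23 members, of which 20 were higher, and had neither for 18, of which 16 were higher.

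**Figure D2:**
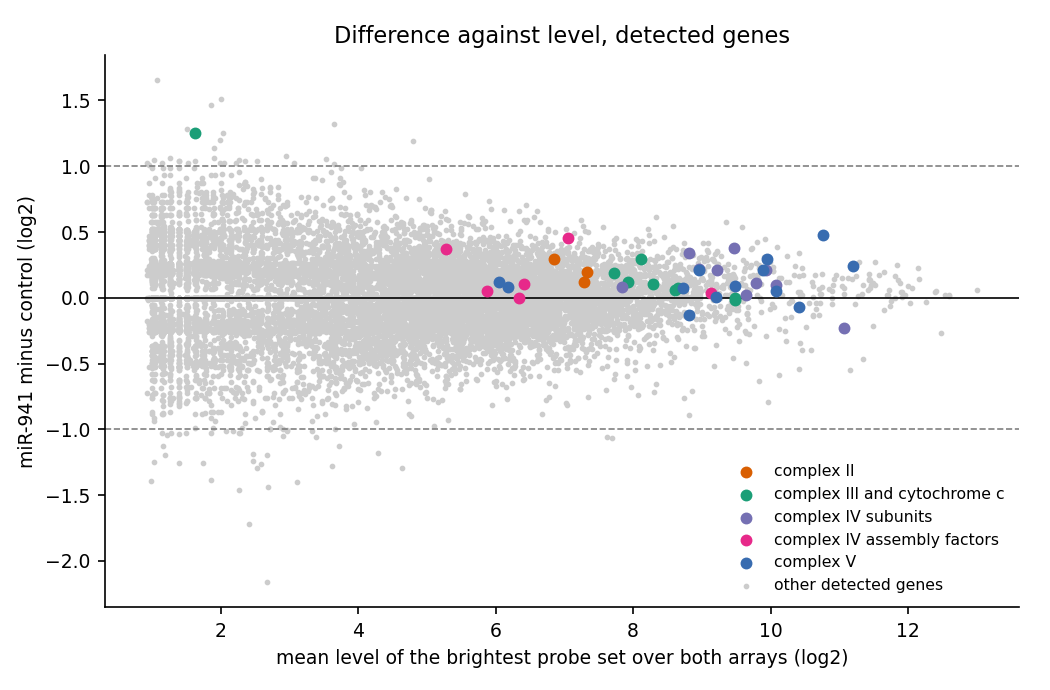
Difference between the miR-941 array and the control array (log2, vertical axis) against the mean level of the brightest probe set (log2, horizontal axis) for 13150 detected genes. Coloured points are the 41 genes of complexes II to V and dashed lines mark 2-fold. All members but UQCC2 lie at a mean level of 5.27 or more, where differences of other genes spread less than at low levels.

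Members read bright and come from short genes, and the share of higher genes varied with both properties. Among the 1732 detected genes with a mean level above 7, 54.4% were higher, with a median difference of 0.02. Of the members 33 lay above that level, with 29 higher and a median of 0.11. The median genomic span, the distance from the first to the last base of a gene in RefSeq, was 8.92 kb for the 41 members and 28.8 kb for all detected genes with a span. Other bright genes with spans over 100 kb had a median of -0.09 and those under 5 kb a median of 0.04. Within genes of a level above 7 and a span under 20 kb, 26 of 30 members were higher (86.7%, median 0.10), against 442 of 738 other genes (59.9%, median 0.04). All detected genes of that level and span, members included, were higher in 60.9% of cases. Other bright, short genes thus also had a median above that of all genes. Among the members themselves, the rank correlation (Spearman) of the difference was -0.17 with level and 0.11 with span. For other detected genes these were -0.04 and -0.10. The part of level and span in the difference of the members was not tested.

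**Figure D3:**
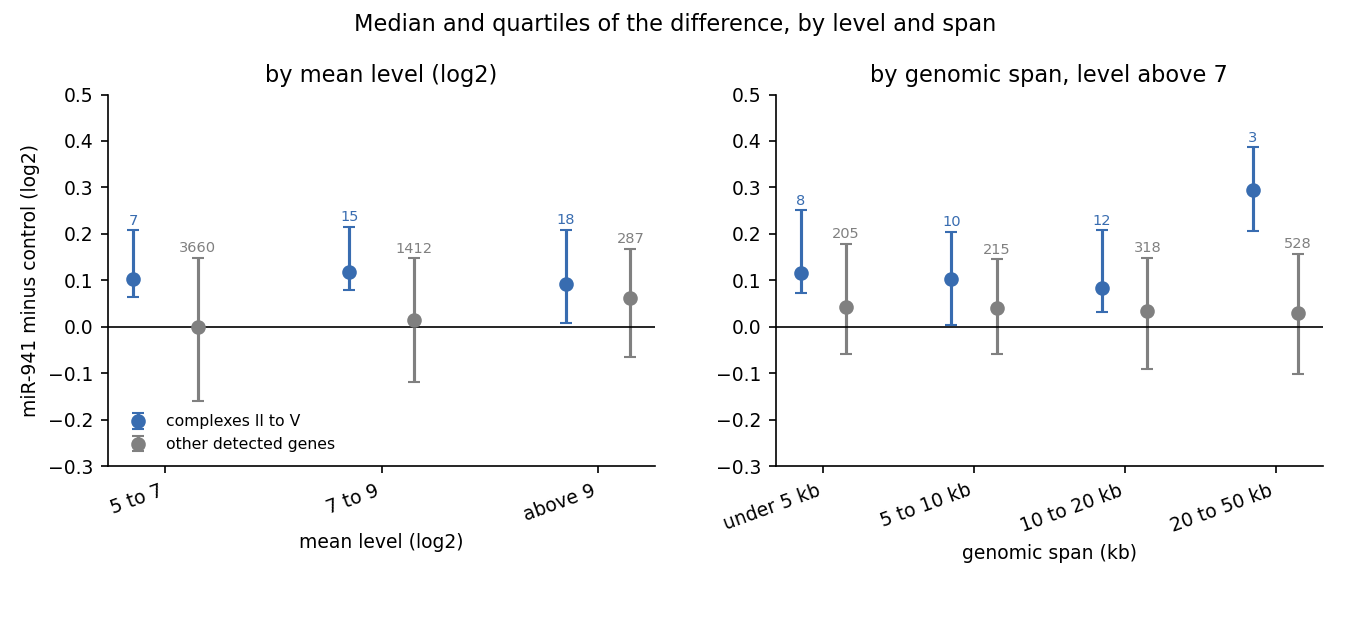
Median difference between the miR-941 array and the control array (points, log2) with lower and upper quartiles (bars) for genes of complexes II to V and for other detected genes, by mean level (left) and, for genes with a level above 7, by genomic span (right). Numbers are genes per stratum, and strata with under 3 members are not drawn. Members have the higher median in each stratum drawn, by the least above level 9 (0.09 against 0.06).

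RNA quality controls also differed between the arrays. The control probe sets at the 5′ end and the 3′ end of the actin mRNA had differences of -0.66 and -0.04, and those of GAPDH had -0.19 and 0.05. The 3 control probe sets of ribosomal RNA had -0.44, -0.08 and -0.45 at the 5′ end, the middle and the 3′ end. Their part in the difference of the members was not tested. Array medians were 0.98 for the miR-941 array and 0.92 for the control array. Of 9 genes listed as active in this cell line 7 were detected, with mean levels from 1.05 (PAX2) to 8.76 (VIM) and differences from -0.59 (INA) to 0.44 (STMN1), while KRT8 and LHX1 were below the detection level. Of 18 markers of other cell types 7 were detected, with mean levels of 1.02 to 2.60, and PTPRC, CD3E, LYZ, ALB, COL1A2, INS, MYH7 and ADIPOQ were below the detection level.

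Genes of the same complexes outside the 46 had a smaller median, with values that varied by class. Of 52 further subunits, isoforms and assembly factors, 46 were detected; 30 were higher, 12 were lower and 4 were equal, and their median was 0.07. Further genes of complex II were higher for 2 of 4 and equal for 2 (median 0.17), and those of complex III higher for 6 of 8 and lower for 2 (0.18). Further ATP synthase genes were higher for 8 of 9 and equal for 1, with a median of 0.21. These 3 medians lay above the 0.11 of the members. ATP5ME, ATP5MJ and ATP5MK, small subunits of the membrane part, differed by 0.21, 0.23 and 0.24, although the second probe set of ATP5MJ was lower, at -0.10, and ATP5IF1, the inhibitor of ATP hydrolysis, by 0.22 with all 3 probe sets higher. Further factors and isoforms of complex IV were nearly balanced, with 14 of 25 higher, 10 lower and a median of 0.01. The 3 highest of the 46 were SDHAF2, which attaches the flavin to SDHA (0.43), and the complex IV assembly factors PET100 (0.41) and COX16 (0.38). The 3 lowest were COX6A2 (-0.26) and COX4I2 (-0.24), isoforms of muscle and lung, and the assembly factor COA5 (-0.25, with both probe sets lower). COX6A2 read 1.13 on the miR-941 array and 1.39 on the control array and COX4I2 read 1.18 and 1.42, so both were near the detection level.

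Partner subunits made from the mitochondrial genome lay on both sides of 0. COX1 and COX2, core subunits of complex IV, differed by -0.06 and 0.01, COX3 by 0.15 and ATP6 of complex V by -0.09. The median of these 4 was -0.03. Enzymes of the tricarboxylic acid cycle and its entry steps, which feed electrons to complexes I and II, were higher for 11 of 17 detected genes and lower for 5, with a median of 0.08. CS, the citrate synthase that opens the cycle, read 8.51 on the miR-941 array and 8.08 on the control array (0.43). PC, pyruvate carboxylase, and SUCLG2, a succinyl-CoA ligase subunit, each differed by 0.26, PC on a dim probe set that read 1.52 on the miR-941 array and 1.26 on the control array. At the other end, IDH3G, a subunit of isocitrate dehydrogenase, differed by -0.20 with both probe sets lower. PDHA1 differed by -0.11 with 2 of 3 probe sets higher, and DLD by -0.06 with 1 of 2 higher. Taking the median over the detected probe sets of each enzyme instead put 14 of the 17 above 0, 2 below and 1 at 0. The middle value of the list was then 0.11, and that of the members was 0.17. The share of all detected genes that read higher was 46.3% on the brightest probe set and 46.6% by that summary.

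**Figure D4:**
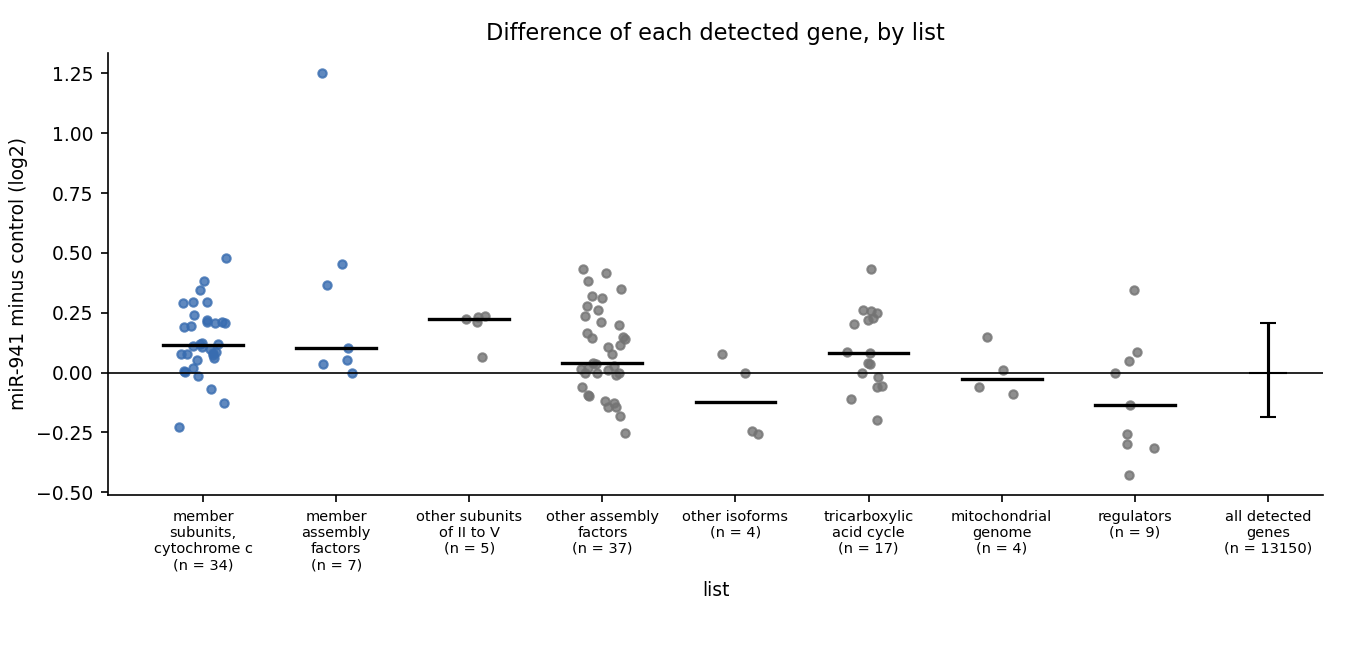
Difference between the miR-941 array and the control array (log2) of each detected gene, by list: members of complexes II to V (blue), and other genes of the same complexes, the tricarboxylic acid cycle, the mitochondrial genome and regulators of respiratory genes (grey). Short lines are medians, and the point at the right gives the median and quartiles of all detected genes (0.00, -0.19 and 0.21). On the brightest probe set of each gene, the regulators have the lowest median, at -0.14. The highest, at 0.22, is that of the 5 genes listed as further subunits, all of complex V and including the inhibitor ATP5IF1.

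Nuclear respiratory genes are known to be switched on together through promoter sites for nuclear respiratory factor 1 (NRF1) and for the ETS-family factor GABP. The 250 bases before the gene start were searched on both strands in RefSeq promoters (GRCh38.p14), which held 36 of the 46 members. The NRF1 motif was searched as the letters GCGCA and GCGC with any 1 base between them, and in reverse as GCGC and TGCGC with any 1 base between them, so that both forms match the same site where the middle bases are AT. It was found in 9 of 36 members (25%), against 5.53% of 27305 promoters and 10.1% of the 10648 promoters of detected genes. The 36 include members that were not detected, here and for the motifs below. The like set for promoters of detected genes is the detected members with a promoter, of which 7 held the motif and 25 did not. The 7 detected members that hold it are shown with the first match in capitals and up to 20 bases on each side, all before the gene start and read along the gene's strand, since they set the shared promoter letters beside the differences above.
SDHA (chr5:218134-218183, plus strand): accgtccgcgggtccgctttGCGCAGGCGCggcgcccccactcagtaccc
SDHD (chr11:112086743-112086792, plus strand): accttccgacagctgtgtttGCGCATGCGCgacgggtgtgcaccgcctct
UQCRC1 (chr3:48609664-48609713, minus strand): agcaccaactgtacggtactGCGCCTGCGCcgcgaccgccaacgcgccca
UQCR11 (chr19:1605463-1605511, minus strand): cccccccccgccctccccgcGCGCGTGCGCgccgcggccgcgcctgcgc
UQCC2 (chr6:33711719-33711768, minus strand): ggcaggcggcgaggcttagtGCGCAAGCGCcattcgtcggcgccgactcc
ATP5F1C (chr10:7788135-7788176, plus strand): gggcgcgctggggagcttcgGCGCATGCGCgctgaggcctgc
ATP5PO (chr21:33915805-33915848, minus strand): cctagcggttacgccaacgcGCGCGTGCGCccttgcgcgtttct

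The 7 members with an NRF1 match were all higher on the miR-941 array, with a median difference of 0.19. They ranged from 0.0049 for ATP5F1C to 1.25 for UQCC2, and neither end held its direction. UQCC2 rests on 1 dim probe set, and the brighter one shared with MIR3934 was at -0.09. ATP5F1C was at -0.03 after quantile normalization, -0.03 with the loess trend removed and -0.23 without _x_at and _s_at probe sets. Of the 25 detected members with a promoter and no match, 21 were higher, with a median of 0.10. Across all detected genes, the median was 0.00 for the 1073 with a match (48.7% higher) and 0.00 for the 9575 without (46.3% higher). The outcome depended on how the motif was spelled. As the 7 letters GCGCATG, with the reverse CATGCGC, it was found in 10 of 36 members (27.8%, against 3.96% of all promoters and 6.25% of those of detected genes), and of the 8 detected ones 6 were higher, with a median of 0.13, against 22 of 24 and a median of 0.11 without it. COX6A1, lower on the miR-941 array at -0.23, and CYCS, nearly equal at -0.01, hold this second form and not the first. A match describes the letters of the window and does not show binding.

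The ETS motif was searched as CCGGAAG, with the reverse CTTCCGG. It was found in 14 of 36 members (38.9%), against 8.82% of all promoters and 15.1% of those of detected genes. SDHD and UQCR11 held both this motif and the first NRF1 spelling, at separate sites. For the 12 detected members with a match the median difference was 0.08 and 9 were higher, and for the 20 without it was 0.15 and 19 were higher. The match was thus common among members on both sides of 0, as 5 of them show: COX15 and COX5B with the 2 highest differences of this set, SDHD with both motifs, and COX6A1 and ATP5PD, which were lower on the miR-941 array.
COX15 (chr10:99732128-99732155, minus strand): cggggctcccgctgcccgacCCGGAAGt
COX5B (chr2:97646005-97646051, plus strand): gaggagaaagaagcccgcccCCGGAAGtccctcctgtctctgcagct
SDHD (chr11:112086776-112086822, plus strand): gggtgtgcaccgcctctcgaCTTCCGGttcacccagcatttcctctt
COX6A1 (chr12:120438077-120438112, plus strand): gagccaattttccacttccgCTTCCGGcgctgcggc
ATP5PD (chr17:75047044-75047090, minus strand): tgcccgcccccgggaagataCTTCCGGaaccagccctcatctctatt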

How the data were processed

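The values deposited by the authors are 1 expression value per probe set and array, which the series' design text says were quantified by RMA. The authors' deposited values were taken here as log2 after RMA; centring is not given in the sources used here. They reach 13.7 (miR-941) and 13.6 (control), above 11.1, the natural log of the largest 16-bit scanner reading, which leaves log2 if they are logs of brightness. The submitters' processing notes also name affy and MAS5. Of 54675 probe sets, 41091 had 1 symbol in the platform annotation, 1801 several and 11721 none; 62 were controls, and 41037 were updated through RefSeq (GRCh38.p14). Differences were computed with Python 3.11.15, pandas 2.3.3 and numpy 2.4.6, counted and summarised by complex beside all detected genes. A run on shuffled values with an added shift checked only the arithmetic of medians. The shift had to be recovered there, so that run bears on no result. Values on both arrays are given for the 2 highest and 2 lowest members of each complex, for differences of 0.4 or more, for probe sets that disagree by 0.3 or more and for subunit families; of other lists, the 3 highest and 3 lowest. Genomic span replaced coding length, which was not used here. Members, lists and motif spellings were chosen with earlier results of these data known. The number of arrays limits the precision. Alternatives were other summaries of probe sets, level filters, normalizations and centring on the bacterial controls.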

Additional observations from a re-analysis of the deposited data

How the results depend on the processing

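No paired analysis was possible because only 1 array stands on each side, which also means that none could be left out. Of 90 values (9 results under 10 alternatives), 81 stayed close by a wide rule and 9 moved. A median moved if it changed by more than the within-gene SD of all genes, 0.29, over the square root of its number of genes. A count moved if it changed by more than 1.5 times. Direction changed for 2 medians, both relative to the bacterial controls. The rule still counted as close that of complex IV assembly factors, and the fall from 36 to 24 higher members. The 81 therefore does not measure how stable such small differences are. The median of all detected members, 0.11, was 0.17 with the mean and 0.17 with the median over the detected probe sets of a gene. The median of complex IV assembly factors, 0.08, was 0.22 with the mean over probe sets, 0.23 with the median over them and 0.31 without _x_at and _s_at probe sets. The 1 member 1.5-fold higher, UQCC2, became 0 above the 75th percentile of level, which drops it, and 0 with probe sets of several symbols, an alternative chosen after seeing the data, under which UQCC2 was at -0.0939. The count of higher members was 36 of 41, 35 after quantile normalization, 33 with the loess trend on level (span 0.3) removed, and 26 of 33 without _x_at and _s_at probe sets, where 45.2% of all genes were higher. Relative to the median of the bacterial controls, chosen after seeing the data, the median of all members was 0.0221, that of complex V -0.0029 and that of complex IV assembly factors -0.0135, and 24 of 41 members were higher. The median of all genes was -0.0906 under that alternative and lay between -0.0118 (loess) and 0.0106 (quantile) under the others. Low signal limits the probe sets given to UQCC2, COX17 and ATP5MF alone.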

Other observations

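Genes of factors known to control respiratory genes had no settled side. On the brightest probe set of each, higher values came from 3 of 9 detected regulators, lower ones from 5 and an equal one from 1 (median difference -0.14), where 46.3% of all detected genes were higher and 42.4% lower. By the median over the detected probe sets of a gene, the counts were 4 on each side and 1 at 0, and the list's median was 0. PPRC1, a coactivator of the PGC-1 family, read 7.11 on the miR-941 array and 7.41 on the control array (-0.30). GABPB1, the partner subunit of GABPA in the factor GABP, differed by -0.32 with both detected probe sets lower, while GABPA differed by -0.43 on its brightest probe set and by 0.70 on the other. NRF1 differed by 0.05, TFB2M, a mitochondrial transcription factor, by 0.09, and ESRRA, a nuclear receptor, by 0.34 with 1 of 2 probe sets lower. PPARGC1A was below the detection level.

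Of 6 probe sets that the annotation gives to a member together with another gene, 4 were detected. The one shared by ATP5MF differed by 0.38 and that shared by COX17 by 0.10, and one given to UQCRH and UQCRHL read 9.60 on both arrays (-0.0045). The motif AAGATGG of the factor YY1, with the reverse CCATCTT, was found in 3 of 36 member promoters (8.33%), against 3.77% of all promoters.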
